A study of Rattus norvegicus with 6 samples.

Results

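Carbonic anhydrases are a gene family whose active members interconvert carbon dioxide and water with bicarbonate and a proton. The deposited gene table was searched for symbols made of Ca or Car, a number and at most 1 further lower-case letter, which found 13 genes among 20422. Of these, 11 had a mean of at least 10 counts over the 6 libraries, and the 10 of them with the highest mean FPKM (fragments per kilobase of transcript, scaled for library depth) were kept: Car8, Car11, Car14, Car13, Car2, Car5b, Car10, Car6, Car12 and Car9. The genes were thus chosen by their symbols and by their counts and FPKM averaged over all 6 libraries, not by the difference between groups. The cells were rat oligodendrocytes in primary culture, the glia that make myelin in the central nervous system, prepared at postnatal day 1. PBS was given to 3 samples and water-soluble cholesterol at 0.01 mM to the other 3, each for 12 h. Neither strain, sex, a carrier control nor the origin of the 3 samples of a group (separate cultures or animals) is given in the labels, so p-values cover variation among these samples only and could reflect technical scatter.

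In the brain, carbonic anhydrases buffer the pH shifts that come with activity and metabolism, and they work beside transporters that move bicarbonate, protons and lactate across membranes. Members differ in where they sit: in the cytosol, in mitochondria, on the outer face of the plasma membrane or secreted. A few members, called carbonic anhydrase-related proteins, lack zinc-coordinating residues and do not catalyse the reaction. Car2 is the member best known in oligodendrocytes and myelin, where it is used as a lineage marker. Carbonic anhydrases also hand bicarbonate to carboxylases, among them the enzyme that starts fatty acid synthesis.

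Depth ranged from 63769532 to 70878378 counts per library, and libraries of 1 group differed by more than sampling noise. The labelled cell type was checked on 12 mature oligodendrocyte markers, of which 11 were in the table and none lay under 0.1 FPKM in every library. Their summed level ran from 4265 to 4385 FPKM with PBS and from 6971 to 8044 FPKM with cholesterol, and 10 of the 11 rose. The cultures also held transcripts of other cells: 8 astrocyte markers summed to 522 to 530 FPKM with PBS and 750 to 814 with cholesterol, and 9 microglial markers to 125 to 137 and 71.1 to 95.9 FPKM. The 5 precursor markers in the table summed to 546 to 562 FPKM with PBS and 415 to 486 with cholesterol, and 8 neuron markers to 221 to 235 and 225 to 238 FPKM. Of 7 listed erythroid markers, the 4 in the table summed to at most 0.206 FPKM in any library, and the other 3 were not analysed here. In bulk RNA, fewer cells of a type and less RNA per cell cannot be told apart.

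Cholesterol was followed by higher levels of 4 of the 10 genes and lower levels of 0. The 4 were Car5b (3.35-fold), Car2 (2.49-fold), Car14 (2.24-fold) and Car8 (1.50-fold), by edgeR's quasi-likelihood test with Benjamini-Hochberg adjustment over 16182 genes. Passing meant an adjusted p under 0.05. The other 6 did not pass. Over all genes tested, 20.5% were higher and 19.7% lower, 40.3% in either direction, so the 40.0% of these genes that passed lay at the background share. Genes at least 2-fold higher made up 2.16% of all genes tested and included 3 of the 10. That count carries no test, since the family was chosen with earlier results of these data known. The groups did not overlap in 5 of the 10 genes, against 52.3% of all genes.

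**Figure D1:**
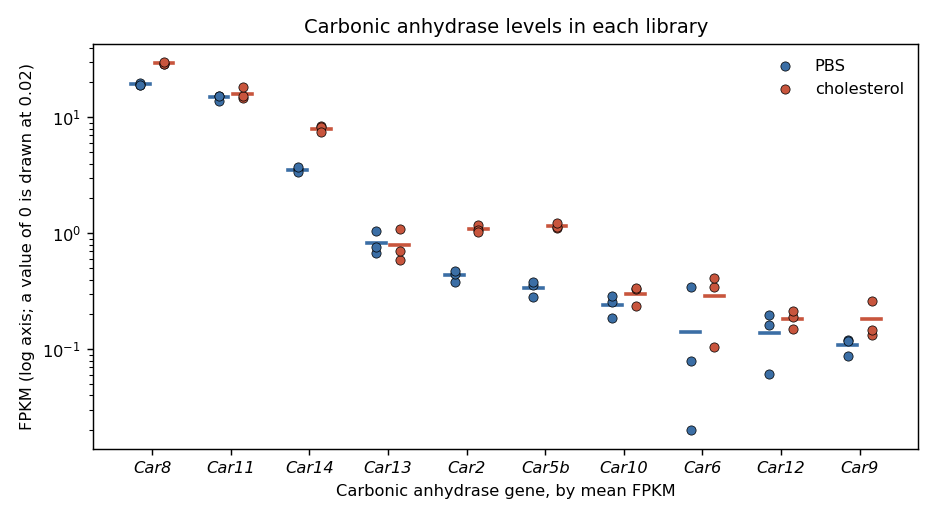
Deposited FPKM (log axis, 0 drawn at 0.02) of the 10 genes in each of 3 PBS (blue) and 3 cholesterol (red) libraries, with group means as bars. Car8 and Car11 stand highest in both groups, and the red points of Car8, Car14, Car2 and Car5b lie above all of their blue points.

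Levels spanned more than 2 orders of magnitude. On the FPKM scale, which corrects for transcript length, the order with PBS was Car8, Car11, Car14, Car13, Car2, Car5b, Car10, Car6, Car12 and Car9. The ranges of the first 6 did not overlap between neighbours in that order, whereas Car5b and Car10, and each lower pair of neighbours, overlapped. With cholesterol, Car5b (1.16 FPKM) and Car2 (1.10) stood above Car13 (0.796), but Car5b overlapped Car2 and Car2 overlapped Car13. Car10 lay below Car13 without overlap, while Car10, Car6, Car12 and Car9 overlapped from each to the next.

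The members with the highest listed levels were carbonic anhydrase-related proteins without enzyme activity. That rank rests in part on a low Car2 value that could not be checked. Car8 is known in mice for its high level in Purkinje cells of the cerebellum, and its protein binds the IP3 receptor Itpr1, a calcium release channel. Its level was 19.0, 19.9 and 19.2 FPKM in PBS libraries 1 to 3 and 28.9, 28.9 and 29.8 FPKM in cholesterol libraries 1 to 3. Every cholesterol library was above every PBS library, and replicates of a group lay close together. Car8 had a log2 fold change of 0.58 ± 0.045 (SE, n = 3 per group, edgeR adjusted p = 8.38e-06). Its mean level over the 6 libraries was higher than that of 83.0% of all genes tested.

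Car11, whose protein is secreted and binds neurexins, stood at 15.4, 13.9 and 15.3 FPKM with PBS and 14.6, 15.4 and 18.1 FPKM with cholesterol. The groups overlapped, and cholesterol replicate 3 was the highest of the 6. Its log2 fold change was 0.10 with a 95% interval from -0.09 to 0.29 (edgeR adjusted p = 0.386). Although Car11 was close to Car8 in level, its interval ended below that of Car8, which ran from 0.48 to 0.68. The difference between the 2 genes was not tested.

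Car10, the other neurexin ligand of the family, was low, with 50, 54 and 35 counts in the PBS and 58, 44 and 59 counts in the cholesterol libraries. These counts overlapped between groups, and the log2 fold change of 0.30 (95% interval from -0.42 to 1.02) did not pass (edgeR adjusted p = 0.498). Car10 overlaps 2 other annotated genes on its own strand, LOC100911361 and an entry without a symbol, so its counts are less certain. LOC100911361 was at 99.0 CPM with PBS (depth-scaled counts, with TMM factors) and 88.7 CPM with cholesterol, far above Car10 at 0.668 and 0.824 CPM.

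Among members with enzyme activity, Car14 had the highest listed level, a rank that rests in part on a low Car2 value that could not be checked. Car14 encodes a transmembrane enzyme whose active site faces the outside of the cell. Its level was 3.56, 3.37 and 3.70 FPKM with PBS and 8.38, 8.21 and 7.45 FPKM with cholesterol. The lowest cholesterol library held more than 2 times the level of the highest PBS library, for a log2 fold change of 1.17 ± 0.07 (SE, n = 3 per group, edgeR adjusted p = 2.03e-06). In the deposited table Car14 lies on the minus strand at chr2:183441667-183449447 and overlaps Aph1a on the plus strand by 289 bases at its 3′ end. Aph1a, a gamma-secretase subunit, had a log2 fold change of 0.26; strand use in counting is not given in the sources used here. Processing notes name the build rn6, but the table's transcript identifiers and its extent on chromosome 1 look like those of a later assembly, so the build of these coordinates is uncertain.

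The RefSeq promoter table (build GRCr8) held 6 of the 10 genes: Car11, Car14, Car5b, Car10, Car12 and Car9. The 250 bases before the start are printed for Car14 and Car5b, which rose, and for Car11, which did not pass at a high level. Capitals mark matches, on either strand, to the core of the hypoxia response element (ACGTG), and bases run 5′ to 3′ on the strand of the gene.
Car14, chr2:186138165-186138414, minus strand: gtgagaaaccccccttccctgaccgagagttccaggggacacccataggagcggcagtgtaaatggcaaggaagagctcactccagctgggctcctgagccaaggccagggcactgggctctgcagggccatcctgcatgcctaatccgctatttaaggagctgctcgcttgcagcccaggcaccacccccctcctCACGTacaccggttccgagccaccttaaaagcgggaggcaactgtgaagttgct
Car5b, chrX:34118776-34119025, plus strand: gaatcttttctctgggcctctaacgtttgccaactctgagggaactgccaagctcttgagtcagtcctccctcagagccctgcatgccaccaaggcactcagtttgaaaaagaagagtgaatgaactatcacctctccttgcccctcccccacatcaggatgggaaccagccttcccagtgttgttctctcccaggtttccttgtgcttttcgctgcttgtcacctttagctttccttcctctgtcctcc
Car11, chr1:105306290-105306539, plus strand: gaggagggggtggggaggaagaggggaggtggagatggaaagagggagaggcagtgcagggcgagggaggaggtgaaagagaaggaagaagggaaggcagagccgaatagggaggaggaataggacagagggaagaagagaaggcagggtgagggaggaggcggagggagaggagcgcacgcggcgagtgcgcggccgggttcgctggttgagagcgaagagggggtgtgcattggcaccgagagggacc

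The windows differ in base composition, with 60.4% G or C in Car14, 52.0% in Car5b and 64.0% in Car11. The Car14 window holds 1 match to ACGTG, read on the opposite strand, and the windows of the other 5 genes hold none. The same core is found in 16.9% of 27457 promoter windows of this length. The core of the sterol regulatory element, searched as CACCCCA, has 1 match, in the Car9 window, which is not printed, and occurs in 5.82% of all windows. None of the 6 windows holds the SOX site ACAAAG (in 16.0% of all windows), the TATA box TATAAA (13.1%) or the E-box CACGTG (5.79%), which contains the hypoxia core. These are matches of letters in a short window. The start used for Car5b lies 12473 bases inside the annotated gene, so its window is not upstream of the whole gene. Starts used for Car11 and Car12 also differ from the annotated 5′ end of the gene, by 193 and 92 bases.

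Car2, the cytosolic enzyme that marks oligodendrocytes, was listed at a low level although myelin genes were abundant. Annotation and counting at this locus could not be checked. Car2 had 80, 91 and 97 counts with PBS and 223, 213 and 193 with cholesterol, or 0.380, 0.444 and 0.477 FPKM and 1.19, 1.07 and 1.03 FPKM. The groups were fully apart. The log2 fold change was 1.31 ± 0.18 (SE, n = 3 per group, edgeR adjusted p = 2.49e-04). Even so, the mean level of Car2 over the 6 libraries was higher than that of only 20.4% of genes tested. Mbp, which encodes a structural protein of compact myelin, rose in the same libraries by 1.13 on the log2 scale.

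Car5b, a mitochondrial enzyme, had the largest rise of the family among genes that passed. Its counts were 54, 55 and 41 with PBS and 150, 161 and 164 with cholesterol, which is 0.360, 0.379 and 0.282 FPKM and 1.12, 1.13 and 1.23 FPKM. The lowest cholesterol value was well above the highest PBS value. Its log2 fold change was 1.75 ± 0.22 (SE, n = 3 per group, edgeR adjusted p = 1.40e-04). Counts this low leave a wide 95% interval, from 1.27 to 2.22.

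Mature oligodendrocyte markers had a median log2 fold change of 1.17, precursor markers of -0.22, astrocyte markers of 0.71, neuron markers of 0.10 and microglial markers of -0.76 in the same libraries. Within the astrocyte list, 5 of 7 tested genes rose and 1 fell, 8 of 9 microglial markers fell, and 3 of 5 precursor markers fell and 1 rose. Their part in the rises of Car8, Car14, Car2 and Car5b was not tested.

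Car2, Car3 and Car13 lie on the minus strand of chromosome 2 in the table, at 86741626-86756818, 86770420-86784280 and 86928383-86959525. Car13 is set further from Car3 than Car3 is from Car2. Of the 3, Car2 alone passed. Car13, another cytosolic enzyme, had 105, 115 and 156 counts with PBS and 83, 161 and 99 with cholesterol. The groups overlapped over most of their range, and the log2 fold change of -0.06 (95% interval from -0.66 to 0.54, edgeR adjusted p = 0.882) had no stable sign. Leaving out PBS replicate 3 gave 0.13, leaving out cholesterol replicate 1 gave 0.11 and leaving out cholesterol replicate 3 gave 0.02. The Car13 interval lay below that of Car2, from 0.92 to 1.71, but the difference between Car13 and Car2 was not tested.

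**Figure D2:**
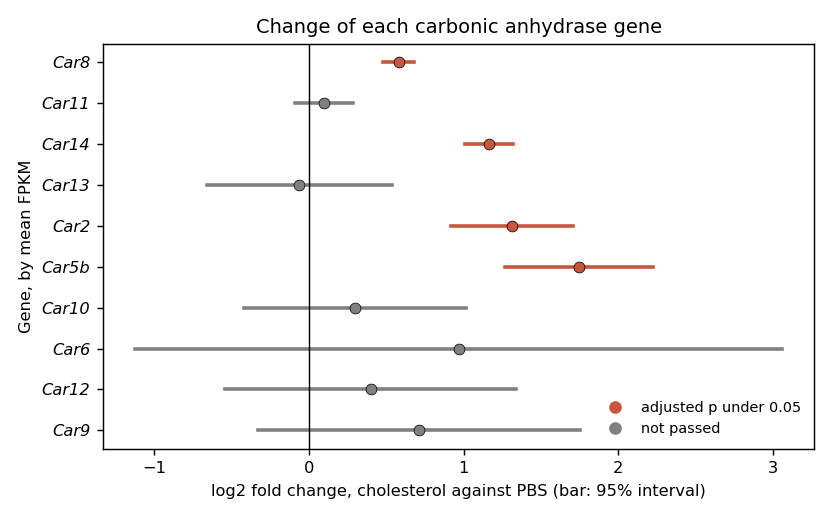
The log2 fold change (cholesterol against PBS) of the 10 genes with its 95% interval from the edgeR fit, in red where the adjusted p was under 0.05. Car8, Car14, Car2 and Car5b are to the right of 0, and the intervals of the other 6 genes include 0.

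The remaining membrane and secreted members were near the lower end of detection. Car9 and Car12 are transmembrane enzymes known as targets of hypoxia signalling in human tumours. Car9 had 20, 19 and 14 counts with PBS and 20, 23 and 39 with cholesterol. After scaling for depth the groups did not overlap, by a small margin, with cholesterol replicate 3 well above the rest, and the log2 fold change of 0.71 (95% interval from -0.33 to 1.75) did not pass (edgeR adjusted p = 0.257).

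Car12 had 19, 49 and 59 counts with PBS and 43, 56 and 60 with cholesterol. PBS replicate 1 was the lowest, the other 5 libraries overlapped, and the log2 fold change was 0.40 (95% interval from -0.54 to 1.34, edgeR adjusted p = 0.491), or 0.04 without PBS replicate 1. Car6, a secreted enzyme of saliva, had 37, 9 and 0 counts with PBS and 33, 42 and 10 with cholesterol. Replicates of Car6 scattered over the same range in both groups, and its 95% interval, from -1.12 to 3.06, held both a fall and a large rise. The intervals of Car9, Car12 and Car6 each hold a change of 2-fold, so a rise of that size could not be told from no change.

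The threshold of 10 genes fell between Car9, with a mean of 0.145 FPKM, and Car3, a cytosolic enzyme abundant in muscle and fat, with 0.0987 FPKM. Car3 had 9, 14 and 15 counts with PBS and 19, 19 and 14 with cholesterol. Car7, a cytosolic enzyme of neurons, had a mean of 6.83 counts and was missed in some libraries of each group, with 0, 11 and 7 counts against 22, 0 and 1. Car4, a lipid-anchored enzyme of the cell surface, had 6 counts in cholesterol replicate 2 and 0 elsewhere. A count of 0 allows up to 0.0423 to 0.047 CPM in these libraries, an upper limit that covers counting error only. All 10 kept genes passed the filter on low counts, as did Car3. Car4 and Car7 did not. Car1, Car5a and Car15 were not among the symbols that the search found, so they were not analysed here.

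Summed over the 13 genes as listed in the table, most of the family's FPKM came from members without enzyme activity, a share that rests in part on the low Car2 value, which could not be checked. Car8, Car10 and Car11 made up 86.2%, 86.1% and 85.4% of the summed FPKM in the PBS libraries and 78.2%, 78.2% and 81.3% in the cholesterol libraries. The 10 genes with enzyme activity summed to 5.55, 5.50 and 5.94 FPKM with PBS and 12.2, 12.4 and 11.1 FPKM with cholesterol, a ratio of means of 2.11. Car14 alone supplied 61.3% to 64.2% of that sum with PBS and 66.0% to 68.5% with cholesterol. Without Car14, the other 9 summed to 1.99 to 2.24 FPKM and 3.65 to 4.23 FPKM. These sums describe the levels and carry no test.

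**Figure D3:**
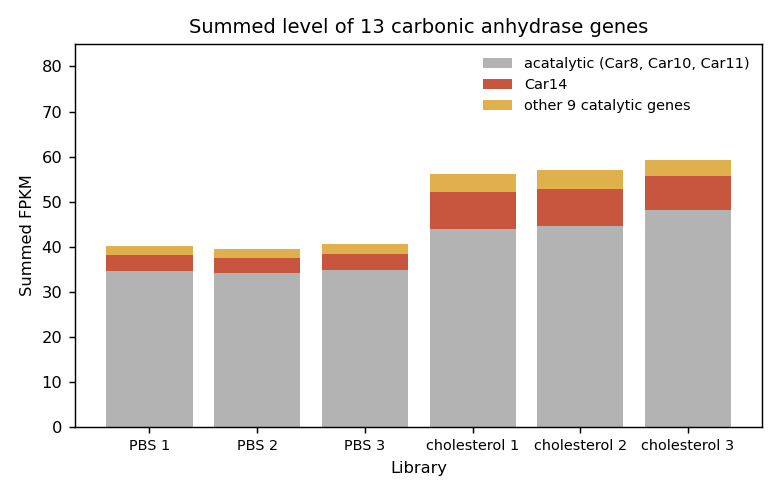
Summed deposited FPKM of the 13 genes in each library, split into the genes without enzyme activity (grey), Car14 (red) and the other 9 genes with enzyme activity (yellow). Grey makes up most of every bar, and red is taller in the 3 cholesterol libraries, at 7.45 to 8.38 FPKM, than in the PBS libraries, at 3.37 to 3.70 FPKM.

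Profiles over the 6 libraries were compared by the mean absolute difference in log2 CPM after centring each gene on its own mean, among 11921 genes with a symbol and at least 1 FPKM. The closest to Car8 were Bub1b (0.0188), Mdm1 (0.0211), Kcna1 (0.0241), Dbx2 (0.0245) and Timm21 (0.0247), with log2 fold changes from 0.54 to 0.59. The closest to Car5b were Stxbp6 (0.101), Slc14a1 (0.109), Ephx1 (0.109), the myelin gene Mog (0.122) and Rgs16 (0.140), with log2 fold changes from 1.48 to 1.75. With 3 libraries per group, such likeness mostly reflects a similar difference between the groups.

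Genes that work beside carbonic anhydrases were taken as lists. Their counts stand against 20.5% higher, 19.7% lower and a median log2 fold change of 0.0053 over all genes tested. Of 8 bicarbonate transporters of the Slc4 family tested, 2 were higher and 2 lower (median -0.22). Slc4a4, which carries sodium with bicarbonate and is prominent in astrocytes, stood at 7.03, 6.78 and 8.83 CPM with PBS and 13.6, 12.5 and 11.6 CPM with cholesterol, a log2 fold change of 0.74 (edgeR adjusted p = 7.20e-04). Slc4a10, a sodium-driven bicarbonate importer, rose by 0.66 on the log2 scale, and Slc4a7, another sodium bicarbonate carrier, fell by 0.31. The largest change of this list was in Slc4a5, with a log2 fold change of -0.79 (edgeR adjusted p = 0.00517). Among 6 sodium-proton exchangers tested, Slc9a9, which works in endosomes, was lower after cholesterol, at 18.0 ± 1.72 CPM against 32.9 ± 2.13 CPM (mean and SD of 3 libraries each, log2 fold change -0.87, edgeR adjusted p = 2.38e-05). The other 5 did not pass, and the list's median was -0.09.

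Lactate leaves and enters cells with a proton, and carbonic anhydrases are known to aid this transport. Of 6 genes for monocarboxylate transporters and their chaperones, 3 were higher and 0 lower (median 0.17). Slc16a1, the lactate transporter of oligodendrocytes, was at 47.5, 48.3 and 50.8 CPM with PBS and 78.5, 73.2 and 69.5 CPM with cholesterol, so every cholesterol value lay above every PBS value. Its log2 fold change was 0.59 ± 0.053 (SE, edgeR adjusted p = 1.85e-05). The chaperones Emb (0.22) and Bsg (0.12) rose by less.

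Among 13 subunits of the vacuolar proton pump, 4 were higher and 5 lower, with a median of -0.01. Atp6v1e1 (0.27) and Atp6v0b (0.21) rose and Atp6v0a1 fell (-0.28). Leaving out PBS replicate 1, cholesterol replicate 1 or cholesterol replicate 3 gave 3 lower subunits, and leaving out PBS replicate 2 gave 1. Of 9 acid and bicarbonate sensors, Kcnk9, an acid-sensitive potassium channel, rose from 0.924 ± 0.186 to 1.94 ± 0.286 CPM (mean and SD of 3 libraries each, log2 fold change 1.07, edgeR adjusted p = 0.0053). Asic1, an acid-gated sodium channel, fell by 0.19 on the log2 scale, the other 7 did not pass, and the median was -0.09. The number of lower sensors was 2 without cholesterol replicate 2.

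**Figure D4:**
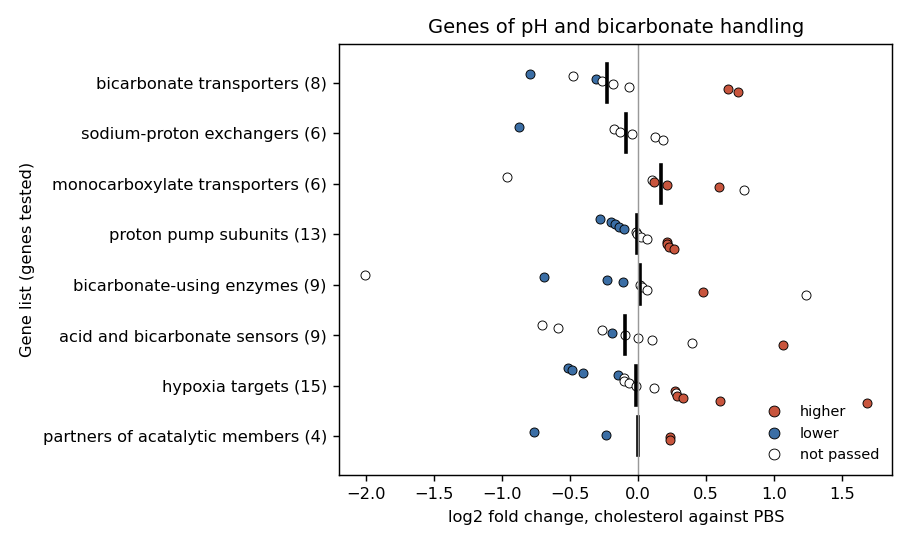
The log2 fold change of each tested gene (points) in 8 lists of genes listed for their link to carbonic anhydrases, with the list median as a bar, red for higher, blue for lower and white for not passed. Points lie on both sides of 0 in each list, with medians from -0.22 to 0.17.

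Of 9 enzymes that consume bicarbonate, 1 was higher and 3 were lower (median 0.02). Pc, the mitochondrial pyruvate carboxylase, was at 78.1, 81.3 and 81.6 CPM with PBS and 111, 113 and 111 CPM with cholesterol (log2 fold change 0.48, edgeR adjusted p = 7.27e-06). Acaca, which makes malonyl-CoA for fatty acid synthesis in the cytosol, fell from 197 ± 6.96 to 122 ± 7.74 CPM (-0.69), and Mccc1, a subunit of the leucine-degrading carboxylase, fell by 0.23 on the log2 scale. Pc and Acaca each overlap 1 other annotated gene. Leaving out PBS replicate 1 or 3, or cholesterol replicate 2 or 3, left 1 enzyme of this list lower.

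Of 15 hypoxia targets, a class to which Car9 and Car12 belong, 5 were higher and 4 lower, with a median of -0.02. Ndrg1 (1.69), the glucose transporter Slc2a1 (0.60) and Ddit4 (0.33), an inhibitor of mTOR signalling, rose. All 4 known binding partners of the members without enzyme activity passed, 2 in each direction. Itpr1, the partner of Car8, was at 13.5, 12.7 and 12.3 CPM with PBS and 6.74, 7.72 and 8.18 CPM with cholesterol, a log2 fold change of -0.77 (edgeR adjusted p = 1.97e-04), while Car8 rose. Nrxn2, a neurexin, fell by 0.23 on the log2 scale.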

How the data were processed

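RNA with poly(A) from 3 PBS and 3 cholesterol samples was sequenced in pairs after a dUTP library protocol, per the labels' protocols. StringTie 2.1.6, HISAT2 2.2.1, cutadapt 1.9, edgeR, DESeq2 and build rn6 are named, without roles, in the submitters' processing notes. Annotation release and counting mode are not given in the sources used here. Per the file headers, the authors deposited a count and an FPKM for each gene and library. The value 4 occurs 2178 times and the value 3 occurs 1307 times, so the deposited counts may not be plain read tallies, and the error model of the test is then approximate.

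The test was edgeR's quasi-likelihood test on these counts (version 4.0.16, R 4.3.3, filterByExpr, TMM, glmQLFit, glmQLFTest, two-sided, no replicate term), which kept 16182 genes and left out 4240. The threshold was an adjusted p of 0.05 (Benjamini-Hochberg, all genes tested). The SE is the log2 fold change divided by the root of F, and 95% intervals use the fit's t distribution. Levels between genes are deposited FPKM, and levels of list genes are TMM-scaled CPM. Alternatives were other filters, scalings, DESeq2 1.42.0, limma 3.58.1 on log2 FPKM with a pseudocount of 0.1 or 1, a replicate block and leaving out each library.

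The family and the lists were chosen with earlier results of these data known, so no list was tested as a set. Named genes were every kept carbonic anhydrase, up to 3 genes per list with the smallest p among those that passed, and the 5 closest profiles to the most abundant member and to the one with the largest change. Some genes that the rule took are not reported here. Markers given by value were chosen after their values were seen.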

Additional observations from a re-analysis of the deposited data

How the results depend on the processing

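The number of carbonic anhydrases that rose was 4 under every alternative run except a minimum mean of 1 FPKM, which left 2, since Car2 and Car5b are then not tested. None fell under any alternative. Leaving out each library gave 4 each time. Car8, Car14, Car2 and Car5b passed under each alternative that tested them, with log2 fold changes from 0.52 to 0.60, 0.99 to 1.22, 0.55 to 1.38 and 0.69 to 1.83. The lowest values of Car2 and Car5b came from a pseudocount of 1 FPKM, which shrinks the change of low genes by construction. The other 6 genes passed under none, with adjusted p from 0.101 to 0.964. Leaving out each library gave Car13 values from -0.352 to 0.134. It turned upward without PBS replicate 3 (0.134, adjusted p = 0.767), without cholesterol replicate 1 (0.108, 0.801) and without cholesterol replicate 3 (0.022, 0.964). Scaling to the library median moved the median of all genes to -0.0564. Of the list counts, the remaining changes over 1.5 times were 1 exchanger higher without cholesterol replicate 2, 2 exchangers lower with scaling to the library median, 0 sensors higher and 1 partner lower at a minimum of 1 FPKM, and 2 sensors lower with the replicate block. Same-numbered samples did not deviate together (correlations of -0.037 to 0.001), which cannot exclude a weak pairing hidden under other scatter. With the replicate block, 4 carbonic anhydrases rose too. Leaving out 1 library moved the log2 fold changes of genes that did not pass by over 1.5 times: Car11 from 0.01 (without cholesterol replicate 3) to 0.156 (cholesterol 1), Car10 from 0.138 (PBS 3) to 0.449 (cholesterol 2), Car9 from 0.355 (cholesterol 3) to 0.883 (cholesterol 1), Car12 from 0.043 (PBS 1) to 0.719 (PBS 3) and Car6 from 0.388 (PBS 3) to 2.684 (PBS 1). Counts of Car6, Car9, Car10 and Car12 were 60 or fewer per library, and their intervals include 2-fold changes.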

Other observations

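Receptor phosphatases Ptprg and Ptprz1 carry an extracellular domain that resembles a carbonic anhydrase and lacks its activity. Both were chosen after their values were seen. Ptprg was at 104, 99.6 and 103 CPM with PBS and 77.4, 74.4 and 87.6 CPM with cholesterol, without overlap between the groups. Its log2 fold change was -0.36 (edgeR adjusted p = 6.91e-04). Ptprz1, also a marker of oligodendrocyte precursors, was at 889, 878 and 867 CPM with PBS and 748, 701 and 815 CPM with cholesterol (-0.22, adjusted p = 0.00486). Inhca, annotated as an inhibitor of carbonic anhydrase, was low, with 1.98, 0.843 and 2.25 CPM against 1.71, 1.93 and 2.65 CPM, and did not pass (adjusted p = 0.496).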
